A study of Mus musculus with 6 samples.

Results

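Chemokine receptors are the surface proteins by which a leukocyte reads gradients of chemokines, and 8 of the 24421 gene entries in the count table were taken by symbol for this description. They were Ccr1, Ccr2, Ccr7, Ccr9, Ccrl2, Cx3cr1, Cxcr2 and Cxcr4. RNA sequencing libraries had been made from poly(A) RNA of monocytes sorted from the bone marrow of B6 mice. In 3 libraries the cells had been given GM-CSF (granulocyte-macrophage colony-stimulating factor, which drives myeloid cells) at 5 ng, in a volume not stated, for 3 h, and 3 libraries were controls. Controls are labelled as fresh isolates in one field, while another describes medium with or without GM-CSF, so time in culture and the cytokine cannot be told apart from the labels. All 6 libraries came from cells of the same strain with no stated genetic change, neither age nor sex is given, and the labels do not tie replicates to separate animals. The p-values below therefore measure the spread among 6 samples, and that spread may be technical.

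Typical chemokine receptors are proteins with several membrane-spanning helices that signal through inhibitory G proteins and phosphoinositide 3-kinase gamma to polarise the cell. CCR2 and its ligand CCL2 are known for drawing classical monocytes out of the marrow, CXCR4 and CXCL12 for holding leukocytes within it, and CX3CR1, the fractalkine receptor, for its high level on non-classical monocytes. CCR1 serves recruitment to inflamed tissue, CCR7 guides dendritic cells to lymph nodes, CCR9 is a homing receptor for the gut, CXCR2 is the main receptor of neutrophils for CXC chemokines, and CCRL2 is an atypical receptor that binds chemerin without signalling like the others.

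The libraries held 16643228 to 25232956 reads in genes, at which 3 reads, the limit that a count of 0 allows, equal 0.119 to 0.180 CPM (read counts scaled to each library's total of gene counts). Such limits and the intervals below cover counting error only. GM-CSF replicate 3 stood slightly apart, with correlations of log2 CPM across genes of 0.980 and 0.983 to the other GM-CSF libraries, against 0.991 between those and 0.992 between each pair of controls; the direction of change of each of the 8 receptor genes held without it. Cish, a target of GM-CSF signalling, stood at 1.46 ± 0.739 CPM in controls and 2046 ± 250.3 CPM with GM-CSF (SD, n = 3 each), the signalling chain Csf2rb rose from 304 ± 24.5 to 2000 ± 88.9 CPM, and the alpha chain Csf2ra was at 482 ± 48.5 and 508 ± 54.4 CPM. Of 11 monocyte markers all 11 were detected, 8 were lower and 1 higher, and the list summed to 71462 to 81430 CPM in controls and 33840 to 36853 CPM with GM-CSF, led by the lysozyme gene Lyz2. Of 12 matched neutrophil and granulocyte precursor markers, 7 were lower and 1 higher, and the list summed to 16924 to 22329 and 11380 to 14231 CPM, led by Mpo, which was not among the 7. Of all genes tested, 31.2% were called lower and 32.8% higher. Summed levels were 70.5 to 79.2 and 37.4 to 48.3 CPM for B cell markers, led by Cd79b. T and NK cell markers, led by Cd3d, summed to 2.70 to 3.68 CPM over both groups. Erythroid markers, led by Car1, summed to 4.52 to 6.62 CPM in controls and 0.512 to 4.11 CPM with GM-CSF. Of the erythroid markers 3 were lower, but all 3 entered the test through their control reads alone, so their calls carry no weight. Basophil and mast cell markers, led by Prss34, summed to 6.25 to 15.4 and 14.4 to 26.6 CPM. Eosinophil markers, led by Siglecf and with Epx at 0 reads, summed to 9.18 to 15.3 CPM over both groups. Macrophage markers, led by Vcam1, summed to 78.9 to 96.3 and 62.5 to 72.5 CPM. Most of the rise in the basophil and mast cell list was Gata2 (0.487 to 10.7 CPM). Gata2 entered the test through its GM-CSF reads alone, so its call carries no weight. Ms4a2 was called higher (0.929 to 1.93 CPM). Prss34 (6.28 and 5.06 CPM) and Mcpt8 (3.67 and 2.98 CPM) were not called either way. Whether these differences in makeup had a part in any receptor's change was not tested, and in bulk RNA fewer cells of a type and less RNA per cell cannot be told apart.

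Of the receptor genes, 5 lie on mouse chromosome 9, Cxcr2 and Cxcr4 on chromosome 1 and Ccr7 on chromosome 11. Sequence before the annotated start was available from RefSeq (GRCm38.p6, the assembly behind mm10) for 7 of the 8 genes, in 9 windows of 300 bases that run from 250 bases before a start to 50 after it. Shown here are the bases before the start for the 4 genes whose window holds little or no annotated exon, 2 that were higher and 2 that were lower with GM-CSF, each 5′ to 3′ on the strand of the gene and without exonic bases. Capitals mark matches, on either strand, to the STAT motif TTCNNNGAA, the PU.1 core GAGGAA, the EGR motif GCGNGGGCG or the NF-kB consensus.
Ccr1 (chr9:123968693-123968942, minus strand): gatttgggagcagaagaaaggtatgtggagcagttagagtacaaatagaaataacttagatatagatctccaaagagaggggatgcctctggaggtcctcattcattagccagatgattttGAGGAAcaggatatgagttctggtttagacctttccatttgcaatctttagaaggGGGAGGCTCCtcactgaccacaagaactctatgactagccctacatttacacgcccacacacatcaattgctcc
Ccrl2 (chr9:111057520-111057768, minus strand): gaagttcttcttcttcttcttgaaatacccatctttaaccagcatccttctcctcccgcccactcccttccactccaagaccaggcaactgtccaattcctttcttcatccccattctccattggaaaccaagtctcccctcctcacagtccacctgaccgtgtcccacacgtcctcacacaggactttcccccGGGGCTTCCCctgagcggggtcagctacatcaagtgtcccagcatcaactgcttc
Cxcr4 (chr1:128592300-128592549, minus strand): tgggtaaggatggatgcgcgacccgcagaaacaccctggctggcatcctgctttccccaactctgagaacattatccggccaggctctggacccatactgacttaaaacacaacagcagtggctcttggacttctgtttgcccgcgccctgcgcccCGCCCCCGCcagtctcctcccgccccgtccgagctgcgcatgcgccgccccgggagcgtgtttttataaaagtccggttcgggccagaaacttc
Cxcr2 (chr1:74153744-74153988, plus strand): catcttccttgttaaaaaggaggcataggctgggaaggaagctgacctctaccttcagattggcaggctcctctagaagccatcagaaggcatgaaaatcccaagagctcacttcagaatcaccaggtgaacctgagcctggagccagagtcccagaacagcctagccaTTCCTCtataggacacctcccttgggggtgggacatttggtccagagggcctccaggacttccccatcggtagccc

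No STAT motif was present in the 9 windows, where 8.3% of 32851 windows of all genes hold one. The Ccr1 window held the PU.1 core at positions -129 to -124, counted from the start, and an NF-kB match at -74 to -65. That of Ccrl2 held an NF-kB match at -56 to -47. Cxcr4 had an EGR match at -94 to -86, read on the opposite strand, and Cxcr2 a PU.1 core at -81 to -76 on the opposite strand and another, not printed, at 6 to 11. None of these matches overlapped another. Among all windows, 28.3% hold the PU.1 core, 5.55% the EGR motif and 8.46% the NF-kB consensus. The windows of Ccr2, Cx3cr1 and Ccr9 and the other 2 of Ccrl2 held none of the 4 motifs, and all matches describe letters, not binding. The upstream sequence of Cxcr4 was also the richest in G and C among the 4 shown, at 61.2% with 19 CG dinucleotides, against 43.6% with 1 for Ccr1.

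Levels of all 8 receptor genes differed between the groups (edgeR quasi-likelihood test, Benjamini-Hochberg adjusted p under 0.05 over 11731 genes tested), Ccr9 having entered the test through its control reads alone. Ccr1, Ccr7 and Ccrl2 rose and Cx3cr1, Ccr2, Ccr9, Cxcr4 and Cxcr2 fell. In each, no GM-CSF library overlapped a control library. Of all genes tested, 64.0% changed, 32.8% higher and 31.2% lower, and 69.5% had groups without overlap, so being called was common in this comparison. At least a 2-fold change with a call was found for 2 higher and 4 lower receptor genes, beside 11.9% and 12.6% of all genes tested. Ccr9 is 1 of those 4, and its call carries no weight there. The median log2 fold change was -0.93 for the 8, Ccr9 included, and 0.01 for all genes tested.

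**Figure D1:**
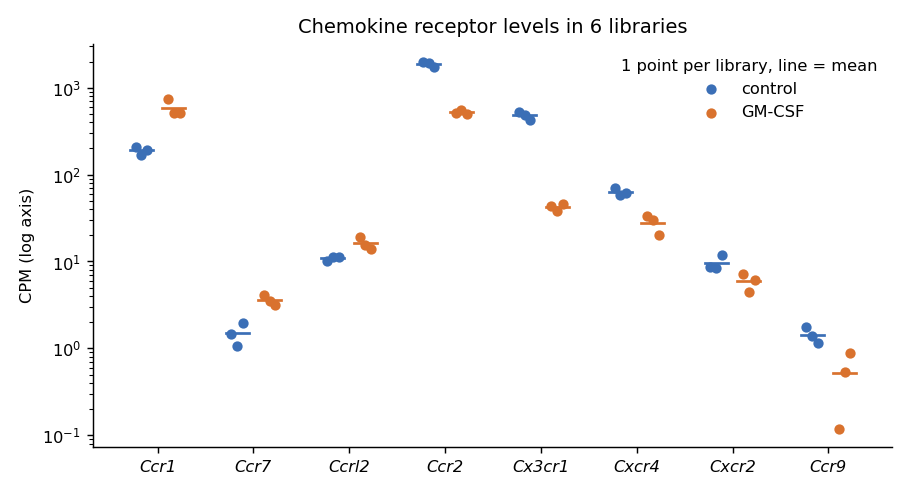
CPM of the 8 receptor genes on a log axis, with 1 point per library (blue, control; orange, GM-CSF) and a line at the mean of 3. Every gene's GM-CSF points lie apart from its control points, from Cx3cr1 at 481 against 42.7 CPM on average to Ccrl2 at 10.8 against 16.2 CPM.

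Among receptors of inflammatory recruitment, Ccr1 was the most strongly raised of the 8. Its control libraries stood at 209, 167 and 193 CPM and its GM-CSF libraries at 748, 517 and 509 CPM. GM-CSF replicate 1 was the highest, and the lowest GM-CSF library was still well above the highest control. Means were 190 ± 21.3 and 591 ± 136 CPM (SD, n = 3 per group), a log2 fold change of 1.65 ± 0.15 (SE; edgeR adjusted p = 3.37e-06).

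Ccr2, the receptor of classical monocytes for CCL2, moved the other way. Control libraries 1 to 3 held 1964, 1939 and 1727 CPM and the GM-CSF libraries 517, 552 and 494 CPM. Both groups were tight, with SDs of 129.9 and 29.1 CPM around 1877 and 521 CPM. The log2 fold change was -1.84 ± 0.09 (edgeR adjusted p = 1.85e-08). The annotation gives no other gene that overlaps Ccr1 or Ccr2, but both belong to a cluster of related genes, and reads that map to more than 1 place are not counted.

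Cx3cr1 had the largest change of the 8, and 2.39% of all genes tested changed by more. It stood at 527, 486 and 430 CPM in the controls and at 43.6, 38.0 and 46.3 CPM with GM-CSF. The 6 values thus form a high and a low group about 11.3-fold apart in their means (log2 fold change -3.49 ± 0.11; edgeR adjusted p = 1.42e-09). Its annotated span reaches across several other genes, and its exons overlap those of 1 antisense gene, Gm33858, whose reads cannot be told apart without the strand setting.

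Cxcr4, the marrow retention receptor, fell less. Control libraries held 69.6, 58.9 and 60.8 CPM, and GM-CSF libraries 33.2, 30.2 and 20.4 CPM, replicate 3 being the lowest. Means were 63.1 ± 5.68 and 27.9 ± 6.72 CPM (log2 fold change -1.17 ± 0.16; edgeR adjusted p = 7.34e-05).

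Ccrl2, the atypical chemerin receptor, rose slightly. It was at 10.1, 11.3 and 11.2 CPM in control and 19.2, 15.4 and 13.8 CPM in GM-CSF libraries, a gap between the groups that is smaller than the spread within the GM-CSF group. The log2 fold change was 0.58 ± 0.15 (edgeR adjusted p = 0.00577), and 46.9% of all genes tested changed by more.

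Ccr7, the receptor of migrating dendritic cells, was near the low end of detection and rose. Its 3 control libraries held 35, 27 and 41 reads and its GM-CSF libraries 69, 59 and 68 reads, from smaller totals. In CPM these were 1.46, 1.07 and 1.97 against 4.11, 3.54 and 3.17, with a log2 fold change of 1.28 ± 0.29 (edgeR adjusted p = 0.00265). The exact 95% Poisson interval of control replicate 3, 1.42 to 2.68 CPM, overlaps that of GM-CSF replicate 3, 2.46 to 4.02 CPM. Of the 8 conventional dendritic cell markers in the same libraries, 3 were higher, 2 lower and none at 0. Among all genes tested, 32.8% were higher and 31.2% lower. The list of markers summed to 124 to 166 CPM in controls and 269 to 310 CPM with GM-CSF. Most of that rise was Cd209a (39.9 to 173 CPM), while Flt3, a growth factor receptor of dendritic cell precursors, fell from 11.5 to 3.88 CPM. Their part in the change of Ccr7 was not tested.

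Cxcr2 fell by a margin that rests on single libraries. It was at 8.67, 8.32 and 11.9 CPM in controls and 7.09, 4.51 and 6.06 CPM with GM-CSF, and the highest GM-CSF library was close to the lowest controls. The log2 fold change of -0.69 ± 0.21 (edgeR adjusted p = 0.0135) was no longer called without control replicate 3 (-0.53, adjusted p = 0.0703) or GM-CSF replicate 2 (-0.53, adjusted p = 0.0571). Of the neutrophil and precursor markers that fell beside it, the granule genes Camp and Ngp went from 3137 to 1157 and from 5282 to 2203 CPM. Others did not fall: Ctsg rose from 261 to 322 CPM, and Mpo (4164 and 4677 CPM), Elane (2312 and 2460 CPM) and Prtn3 (695 and 690 CPM) missed the threshold. Retnlg, a gene of mature neutrophils, was at 3.45 to 5.15 CPM in controls and 2.32 to 5.45 CPM with GM-CSF, and none of the 12 matched markers was at 0. Their part in the fall of Cxcr2 was not tested.

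Ccr9 was the rarest of the 8 and its change is the least secure. The control libraries held 42, 35 and 24 reads and the GM-CSF libraries 2, 9 and 19, the last of which (0.885 CPM) is close to the lowest control (1.15 CPM). Only 1 GM-CSF library held 10 reads or more, while all 3 controls did. The gene thus entered the test through the controls, where it is high, and its call carries no weight among the 8. The log2 fold change was -1.41 ± 0.52 (edgeR adjusted p = 0.0328), with a 95% interval of -2.56 to -0.27. The call was lost when control replicate 1, 2 or 3 was left out (-1.24, -1.45 and -1.56) or GM-CSF replicate 1 (-0.98) or 2 (-1.42), and it held without GM-CSF replicate 3 (-2.09).

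Ccr9 is known from plasmacytoid dendritic cells. Of 10 markers of those cells none was at 0, and 6 were tested. Of these 5 were lower and 1, Runx2, higher, beside 31.2% lower and 32.8% higher of all genes tested. Siglech and Lefty1 entered the test through their control reads alone, so their calls carry no weight among the 5. The list, led by Tcf4, summed to 64.7 to 69.7 CPM in controls and 49.4 to 55.1 CPM with GM-CSF. Siglech, the defining surface marker, was at 3.33, 2.46 and 3.42 CPM in controls and at 0.119, 0.721 and 1.72 CPM in GM-CSF libraries 1 to 3. Spib, a transcription factor gene of these cells, was at 5.96, 8.68 and 6.54 CPM in controls and 3.40, 3.18 and 5.03 CPM with GM-CSF. Whether this had a part in the fall of Ccr9 was not tested. Annotated exons of Ccr9 also overlap those of Slc6a20a, Gm17200 and AC165425.1, so its few reads may be mixed or lost.

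**Figure D2:**
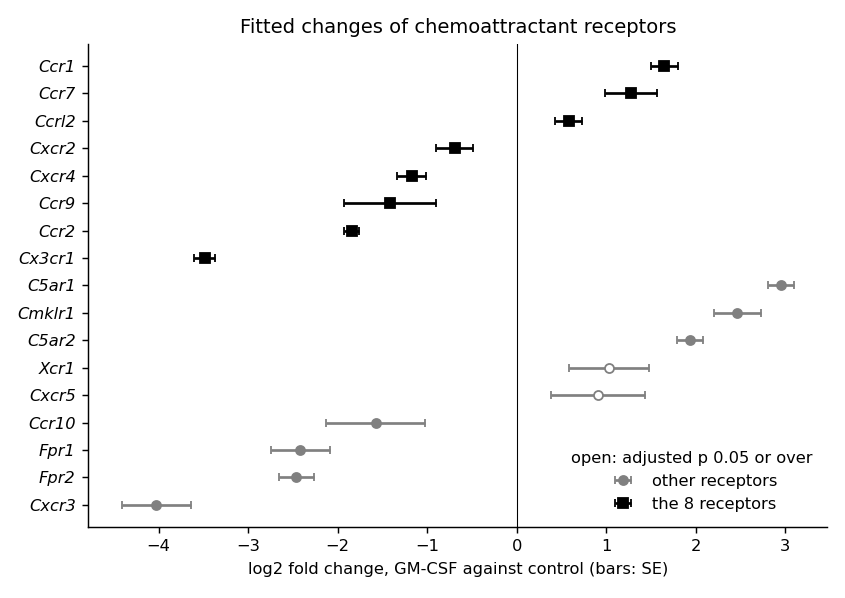
Log2 fold change, GM-CSF against control, with SE bars, for the 8 receptor genes (black squares) and 9 other receptor genes that could be tested (grey circles, open where the adjusted p was 0.05 or more). The 8 run from -3.49 for Cx3cr1 to 1.65 for Ccr1, and the others from -4.02 for Cxcr3 to 2.95 for C5ar1. Ccr9, Cxcr3 and Ccr10 entered the test through their control reads alone.

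Compared per length, as reads per kilobase of annotated exon on the CPM scale (RPKM), the order of the receptors differed between the groups. In controls Ccr2 led at 278 ± 19.2 RPKM, followed by Cx3cr1 at 107 ± 10.8, Ccr1 at 67.0 ± 7.52 and Cxcr4 at 34.9 ± 3.14 RPKM (SD, n = 3). Ccrl2 (3.88 to 4.33 RPKM) and Cxcr2 (2.73 to 3.90 RPKM) came next and overlapped, and Ccr7 (0.541 to 0.997 RPKM) and Ccr9 (0.113 to 0.171 RPKM) were last. With GM-CSF, Ccr1 led at 209 ± 47.9 RPKM, ahead of Ccr2 at 77.1 ± 4.30, Cxcr4 at 15.4 ± 3.72, Cx3cr1 at 9.47 ± 0.936 and Ccrl2 at 6.22 ± 1.06 RPKM. Cxcr2 (1.48 to 2.33 RPKM) and Ccr7 (1.60 to 2.08 RPKM) overlapped there, and Ccr9 was last at 0.0116 to 0.0863 RPKM. All other neighbours in either order had ranges apart.

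The makeup of receptor RNA shifted accordingly. Per length, Ccr2 made up 56.1% ± 1.67 of the summed level of the 8 genes in controls and 24.4% ± 3.82 with GM-CSF (SD, n = 3 per group). Ccr1 went from 13.6% ± 1.46 to 64.7% ± 4.29, and Cx3cr1 from 21.6% ± 0.801 to 3.00% ± 0.561. Within each library the ratio of Ccr2 to Ccr1 was 3.93, 4.86 and 3.74 in controls and 0.290, 0.447 and 0.407 with GM-CSF, on the RPKM scale, so Ccr2 was above Ccr1 in every control and below it in every GM-CSF library. Counted by reads and not per length, the ratio was 9.38, 11.6 and 8.93 in controls and 0.691, 1.07 and 0.971 with GM-CSF, so in GM-CSF library 2 Ccr2 stayed above Ccr1. The summed level of the 8 was 462 to 527 RPKM in controls and 283 to 380 RPKM with GM-CSF.

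**Figure D3:**
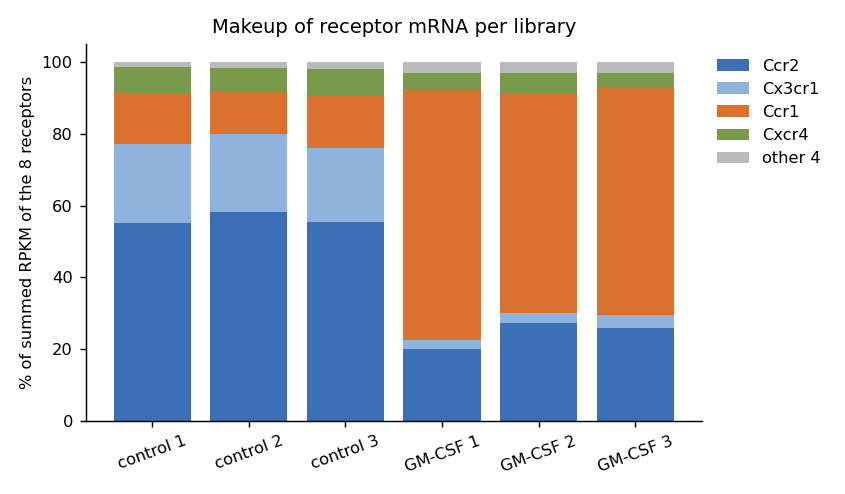
Share of each receptor gene in the summed RPKM of the 8, 1 bar per library, with the 4 rarest (Ccr7, Ccr9, Ccrl2 and Cxcr2) in grey. Ccr2 fills 55.1% to 58.1% of the control bars and Ccr1 61.1% to 69.4% of the GM-CSF bars.

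Ccr1 and Ccr2 are near neighbours in the genome although their levels moved apart. On GRCm38, Ccr9 (chr9:123678439-123784330), Ccr1 (chr9:123962124-123968692) and Ccr2 (chr9:124101950-124113557) belong to one cluster of receptor genes, all annotated as protein-coding. The annotated starts of Ccr1 and Ccr2 lie 133.3 kb apart on opposite strands. Between them are Ccr1l1, at 5 control and 3 GM-CSF reads, and Ccr3, a receptor of eosinophils and basophils, at 34 and 13 reads, both removed by the filter on low counts. On the side of Ccr1 towards Ccr9, Xcr1 (1.03 ± 0.45, edgeR adjusted p = 0.0644) did not pass the test, though it did without GM-CSF replicate 3 (1.36, adjusted p = 0.00913), and Cxcr6 had 25 control and 7 GM-CSF reads and was not tested. Ccrl2 (chr9:111054486-111057519) and Cx3cr1 (chr9:119901616-120069879) lie outside the cluster on the same chromosome.

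**Figure D4:**
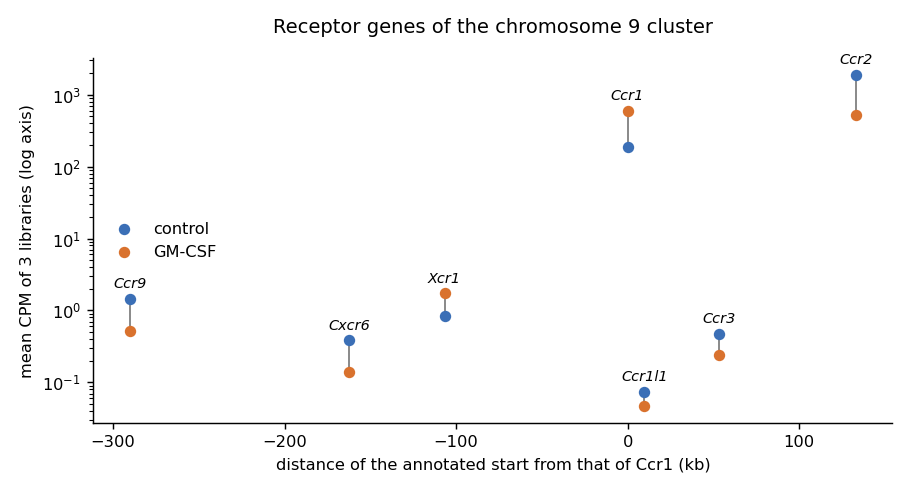
Mean CPM of 3 libraries per group on a log axis for 7 receptor genes of the chromosome 9 cluster, placed by the distance of each annotated start from that of Ccr1. At Ccr1 the GM-CSF point lies above the control point, and at Ccr2, 133.3 kb away, below it.

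Of the other receptors for chemokines and leukocyte attractants, 21 are described here, and 9 of them could be tested. Of these 3 rose, 4 fell and 2, Xcr1 and Cxcr5, missed the threshold, beside 32.8% higher and 31.2% lower of all genes tested. The median log2 fold change of the 9 was 0.91, Cxcr3 and Ccr10 included. Cxcr3 (4, 4 and 3 GM-CSF reads) and Ccr10 (2, 9 and 7) entered the test through their control reads alone, so their calls carry no weight among the 4. Without GM-CSF replicate 3, Xcr1 and Cxcr5 passed and 5 rose (Cxcr5 0.91, and 1.35 with edgeR adjusted p = 0.0116 without it). The genes that rose were C5ar1, C5ar2 and Cmklr1. C5ar1, the signalling receptor for complement C5a, was at 33.8 ± 4.38 CPM in controls and 259 ± 54.5 CPM with GM-CSF (SD, n = 3 per group; log2 fold change 2.95 ± 0.15). The largest falls among the 9 were in Cxcr3, the receptor for interferon-induced chemokines (3.39 ± 0.561 to 0.206 ± 0.0575 CPM; log2 fold change -4.02 ± 0.38), and the formyl peptide receptor Fpr2 (22.9 ± 5.45 to 4.13 ± 0.431 CPM; -2.46 ± 0.20), whose annotated exons overlap those of Fpr3. Cmklr1, the signalling receptor for chemerin, which CCRL2 also binds, rose from 1.41 ± 0.397 to 7.71 ± 1.32 CPM. Cxcr1 had 0 reads in every library. Ccr3 and Ccr1l1 share sequence with Ccr1, so some of their reads may be left out.

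Ligand genes were tested in the same cells, beside their receptors. Of 19 ligand genes of the 8 receptors, 13 could be tested. Of these 7 rose, 4 fell and 2 missed the threshold, beside 32.8% higher and 31.2% lower of all genes tested. Their median log2 fold change was 2.36, a value that includes genes that entered the test through a single group and so carries no weight. Ccl7, Ccl12 and Cxcl3 entered the test through their GM-CSF reads alone and Ccl5 through its control reads alone, so their calls carry no weight in these counts. All 3 CCR2 ligands rose while Ccr2 fell, but of the 3 only Ccl2 could have entered the test through either group. Ccl2 went from 9.26 ± 3.82 to 306 ± 67.2 CPM and Ccl12 from 8 reads over the controls to 234 over the GM-CSF libraries (log2 fold change 5.19, and 6.48 without control replicate 1). Ccl7, which also binds CCR1, went from 3 to 2181 reads, which per total is a ratio of 927 (95% counting interval 317 to 4500). Its fitted log2 fold change was 9.71, and 10.48 without control replicate 2.

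CCR1 ligands were divided. Ccl3 (2.36 ± 0.14) and Ccl4 (3.25 ± 0.25) rose, while Ccl6 (1464 ± 105 to 718 ± 97.4 CPM), Ccl9 (831 ± 104 to 502 ± 18.9 CPM) and Ccl5 (1.14 ± 0.241 to 0.448 ± 0.140 CPM) fell. The call of Ccl5 was lost without control replicate 3 (-1.19, adjusted p = 0.0677). Even after their fall Ccl6 and Ccl9 had more reads than any other ligand in the list.

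Among CXCR2 ligands, Cxcl2 (1.16 ± 0.180 to 26.8 ± 17.4 CPM; log2 fold change 4.53, and 3.85 without GM-CSF replicate 1) and Cxcl3 rose, the latter from 3 control reads to 2374 (ratio per total 1009, 95% counting interval 345 to 4898). Ppbp, a platelet chemokine, did not pass the test (edgeR adjusted p = 0.231), and control replicate 3 held 142 of its 151 control reads. Cxcl12, the CXCR4 ligand made by marrow stroma, had 56 control and 15 GM-CSF reads and did not pass (edgeR adjusted p = 0.0683). Cxcl12 passed without control replicate 1 (-1.93) or GM-CSF replicate 1 (-2.11), and its log2 fold change of -1.53 shrank to -0.91 without control replicate 3 (adjusted p = 0.314). Ccl25, the CCR9 ligand, fell (-0.60 ± 0.23, edgeR adjusted p = 0.0426), but its exons overlap those of Elavl1, and the call was lost when any of the 6 libraries was left out (-0.67 to -0.44), with a replicate block (-0.59, adjusted p = 0.0622), with DESeq2 (-0.61, adjusted p = 0.0661) and with limma-voom (-0.57, adjusted p = 0.0558). The CCR7 ligands Ccl19 and Ccl21a had 0 reads in every library, the chemerin gene Rarres2 had 1 read in all, and Cx3cl1, which encodes fractalkine, had 0 control reads and 11, 5 and 62 reads in the GM-CSF libraries, too few for the filter.

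**Figure D5:**
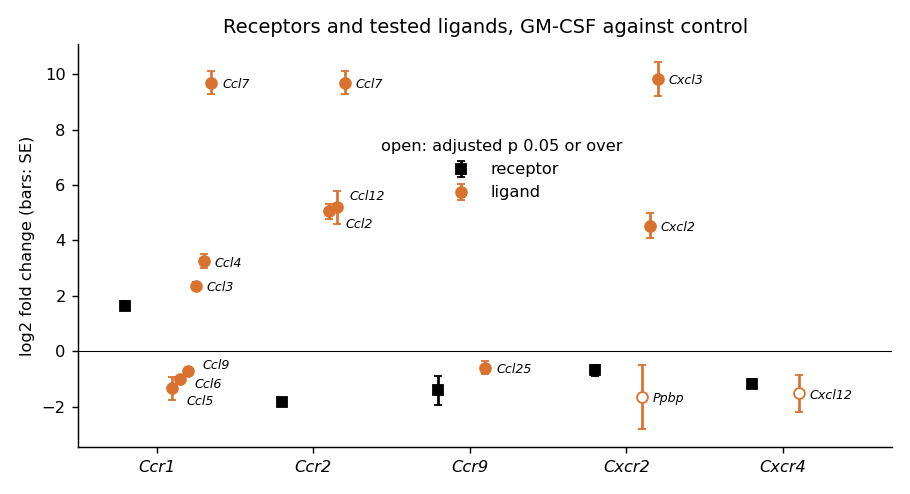
Log2 fold change, GM-CSF against control, with SE bars, of 5 receptor genes (black squares) and of their tested ligand genes (orange circles, open where the adjusted p was 0.05 or more). Over Ccr2 at -1.84 the ligands run from 5.05 for Ccl2 to 9.71 for Ccl7, while those of Ccr1 lie on both sides of 0. Ccl7, Ccl12 and Cxcl3 entered the test through their GM-CSF reads alone, and Ccl5 and Ccr9 through their control reads alone.

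Downstream of the receptors, genes of the G protein and phosphoinositide 3-kinase gamma pathway moved in both directions. Among the 16 genes of this list 5 rose (3 with upper quartile scaling), 9 fell and 2 missed the threshold, beside 32.8% higher and 31.2% lower of all genes tested. The median log2 fold change of the list was -0.35. The largest falls were in Gng2, a G protein gamma subunit (98.2 ± 3.96 to 31.9 ± 1.78 CPM; -1.61 ± 0.08), and Prex1, an activator of the GTPase Rac (-1.14 ± 0.08). The largest rises were in Pik3r5, a regulatory subunit of the kinase (0.56 ± 0.12), and Gnb1, a G protein beta subunit (0.52 ± 0.11). Gnai2, an inhibitory alpha subunit, was at 1974 ± 69.0 and 1639 ± 64.3 CPM and fell by 0.26 on the log2 scale.

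Genes that end receptor signalling were also examined. Of 14 receptor kinase, arrestin and RGS genes (RGS proteins switch G proteins off), 2 rose, 8 fell and 4 missed the threshold, with a median log2 fold change of -0.64; among all genes tested 32.8% rose and 31.2% fell. Rgs2 was at 516, 443 and 448 CPM in controls and at 71.1, 65.2 and 68.3 CPM with GM-CSF (log2 fold change -2.78 ± 0.09), and Rgs3 fell by 2.03 on the log2 scale. The genes that rose were Grk5, a receptor kinase (26.0 ± 3.25 to 77.4 ± 3.63 CPM), and Rgs16. Rgs16 went from 3 control reads, all in replicate 3, to 233 (ratio per total 99.1, 95% counting interval 33.5 to 484). It entered the test through its GM-CSF reads alone, so its call carries no weight in the count, and the median of the list includes it. An antisense gene overlaps its exons. Without control replicate 3 the controls held 0 reads of Rgs16, and its fitted log2 fold change went from 6.48 to 9.51, a value that depends on the prior count.

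For each receptor the genes with the most similar pattern were sought among 8533 genes whose log2 CPM averaged 3 or more, by the root mean square difference of centred log2 CPM over the 6 libraries. For Ccr2 these were Fam105a (0.05) and Ptpro (0.07), for Cx3cr1 Rnase6 (0.11) and Ppfia4 (0.14), for Ccr1 Hmces (0.09) and F10 (0.09) and for Cxcr4 Cdkn1b (0.07) and Map3k1 (0.09). The closest to Ccrl2 were Taf7 (0.05) and Fndc3a (0.06), to Ccr7 Dusp1 (0.11) and Inhba (0.15), and to Cxcr2 Slfn9 (0.12). Ccr9 had no near match, its closest genes being Gm14326 (0.35) and Btbd2 (0.37). With 2 groups of 3, such likeness mostly reflects a similar size of change.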

How the data were processed

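The authors deposited whole-number counts, not normalized, by gene symbol; each of the 6 columns bears a sample's title. Per the submitters' processing notes the tools were Trim Galore 0.4.4, STAR 2.5.2a, HTSeq 0.6.1p1 and edgeR, with build mm10; what each did, which annotation was used and whether strand was used is not stated in the sources used here. Rows without a gene stayed out of totals and tests: reads outside genes were 7.82% to 9.72% of counted reads, ambiguous ones 1.44% to 1.53% and those without a unique position 18.0% to 19.6%.

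The test was edgeR's quasi-likelihood F test (edgeR 4.0.16, R 4.3.3; two-sided) after TMM and filterByExpr (minimum count 10, minimum total 15). Group was the only term. It was fitted over 11731 of 24421 genes and adjusted by Benjamini-Hochberg at 0.05. "Rose" and "fell" mean past that threshold. SE is the absolute log2 fold change over the square root of F. Lengths and positions came from GENCODE M21 (GRCm38). The procedure was tested on simulated counts. The receptors and gene lists were chosen with earlier results of these data known. Named besides the 8 were the 2 largest changes per list and direction among genes past the threshold, the gene with the highest mean in each marker list, and the nearest genes. Cmklr1, C5ar2, Ccr3, Ccr10, Ccr1l1, Xcr1, Cxcr5, Cxcr6, Gnai2, the other ligands, and the marker genes Camp, Ngp, Ctsg, Elane, Prtn3, Retnlg, Siglech, Spib, Runx2, Lefty1, Flt3, Gata2, Ms4a2, Mcpt8 and Epx were chosen after their values were seen. Some genes that these rules select are not reported here and stay out of the counts of their lists. Alternatives were other scalings and filters, a robust prior, a replicate block, each library left out, removal of the 10 most abundant genes, DESeq2 1.42.0 and limma-voom (limma 3.58.1).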

Additional observations from a re-analysis of the deposited data

How the results depend on the processing

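Under the 16 alternatives the log2 fold changes of Ccr1, Ccr2, Ccr7, Ccrl2, Cx3cr1 and Cxcr4 kept their direction and call, with ranges of 1.43 to 1.75, -1.96 to -1.80, 1.08 to 1.5, 0.43 to 0.69, -3.60 to -3.40 and -1.33 to -0.98. Cxcr2 ran from -0.85 to -0.53 and Ccr9 from -2.09 to -0.98 over the libraries left out in turn, with the lost calls given in the text. No label says whether the numbers in the titles pair the samples. Same-numbered libraries deviated from their group means with correlations of 0.0727, 0.00984 and 0.0038, and differently numbered ones with -0.0469 to 0.0304. With 3 libraries per group such values cannot decide whether the samples are paired. With a replicate block the count of changed genes went from 7511 to 7493 and Ccr9 was not called (-1.498, adjusted p = 0.0530).

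With upper quartile scaling the median of all genes moved by -0.12 (log2), 43.0% of changed genes were higher instead of 51.3%, 3 genes of the G protein list rose instead of 5, and Csf2ra turned to -0.034. Ppbp, which did not pass the test at -1.65, turned to 0.017 with limma-voom and ranged from -2.25 to 1.97 over the libraries left out, highest without control replicate 3. The number of other receptors that rose was 3 to 5 over the libraries left out. The number of ligands that fell was 2 to 4 over the libraries left out, lowest without control replicate 3. Counted as reads per gene instead of per length, Ccr1, Ccr2 and Cx3cr1 took 7.23%, 71.3% and 18.2% of the receptor total in controls and 48.5%, 43.5% and 3.56% with GM-CSF, since Ccr2 has the longer exons. The order by RPKM was the same with TMM scaling and, an alternative chosen after seeing the data, with the longest coding transcript as length. Depth limits Ccr9 and Ccr7, at 101 and 103 reads over the 3 controls.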
